A study of Homo sapiens with 20 samples.

Results

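The response of acute myeloid leukemia (AML) lines to interferon gamma (IFNg) was measured by RNA sequencing in 6 of the 20 libraries of the series. The 6 are the untreated and the IFNg library of Kasumi-1, NOMO-1 and THP-1, chosen by their labels and paired by line, 3 a side. IFNg was given alone at 10 ng/ml for 24 h, and the untreated cells received neither cytokine. As background, Kasumi-1 is a myeloblast line, and NOMO-1 and THP-1 are monocytic lines. Each line is an established culture with 1 library for each treatment, so the line is the replicate. Errors and p-values measure the spread between 3 lines and not between cultures of 1 line, except when Kasumi-1 is compared with the others. The other AML libraries, with 10 ng/ml of tumor necrosis factor alpha (TNFa) or of both cytokines, entered the fit to estimate that spread. The endothelial lines iHUVEC and TIME, treated the same way, served only for the comparison of cell types.

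IFNg is a cytokine of T cells and natural killer cells. It binds a receptor made of IFNGR1 and IFNGR2, whose kinases JAK1 and JAK2 phosphorylate STAT proteins. STAT dimers bind gamma-activated sites (GAS) in promoters and switch on IRF1 and other transcription factors, which bind interferon regulatory factor (IRF) elements in a further set of genes. In myeloid cells this pathway is known for raising antigen presentation, high-affinity Fc receptors, chemokines that attract T cells, and genes of defence against intracellular microbes.

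Levels are in transcripts per 1000000 (TPM), a length-corrected share of reads, so levels of different genes can be set side by side. TPM was rescaled to a total of 1000000 after the 13 mitochondrial genes were removed, since these held 73.2 to 76.0% of the TPM of the NOMO-1 libraries compared here and 12.8 to 24.8% in the other lines. The sequencing depth is unknown. Changes are differences of log2(TPM + 1), IFNg minus untreated, written as log2 changes with their standard error (SE, n = 3 lines). This scale understates the change of weakly expressed genes. A gene was said to rise or fall if its adjusted p in limma, over all 14711 genes tested, was under 0.05. In bulk RNA, fewer expressing cells and less RNA per cell cannot be told apart. All 16 hematopoietic and myeloid markers passed the filter on low values, with a summed level of 4240 to 9463 TPM in untreated and 3829 to 8249 TPM in IFNg libraries. Markers of other cell types were low (summed levels of 20.6 to 252 TPM for 13 lymphoid and 39.5 to 462 TPM for 18 endothelial markers) apart from single genes, such as the epithelial adhesion gene EPCAM at 129 and 78.4 TPM in untreated and IFNg Kasumi-1 and the vascular gene EGFL7 at 377 and 180 TPM there. Of the 18 endothelial markers, 8 passed the filter and none of them was called.

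With IFNg 91 genes rose, which is 0.619% of those tested, and 0 fell. At an unadjusted p under 0.05 in limma, 660 genes were higher (4.49%) and 569 lower (3.87%). Of the 14711 genes tested, 6026 had a log2 change above 0, the base for such counts in the lists below. All 91 were higher in 3 of 3 lines, as were 13.5% of all tested genes. In 80 of them every IFNg library lay above every untreated library, against 2.53% of all tested genes. The log2 changes of the 91 ran from 1.22 to 8.63 with a median of 3.63, while the median over all tested genes was -0.09. Their summed share of the TPM went from 0.614 to 4.65% in Kasumi-1, from 0.561 to 5.02% in NOMO-1 and, less far, from 0.624 to 3.17% in THP-1. The count was 59 without Kasumi-1, 31 without NOMO-1 and 25 without THP-1, and 19 genes kept their call without any 1 line. Among them are GBP1, GBP2, GBP4, GBP5, PTGES3P1, ETV7, HAPLN3, EPSTI1, LGALS3BP, BATF2, WARS1, IRF1, PARP14, LAP3, IL15RA, FBXO6, B2M and PSME2. Each of the other 72 lost its call in at least 1 of those fits, in which none turned direction.

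Promoters of the genes that rose are shown because these genes moved together and the pathway acts through known DNA elements. RefSeq windows from 250 bases before to 50 after a gene's start (GRCh38.p14) were found for 70 of the 91 genes, 98 windows in all. They were searched on both strands for GAS, spelled TTCNNNGAA, and for an IRF element, spelled GAAA, NN and GAAA in 1 run, where N is any base. GAS was in 24.5% of the windows of genes that rose and in 7.66% of all 35116 windows of the table. The IRF element was in 33.7% and 3.57%. Either was in 46.9% and 10.8%. Matches describe letters in these windows and not binding. The stretches below run 5′ to 3′ on the gene's strand, all before the start, with the matched letters in capitals; TTTC is GAAA read from the other strand. IRF1, a transcription factor (chr5:132490864-132490922, minus strand), and ICAM1, an adhesion molecule (chr19:10271020-10271078, plus strand), hold a GAS:
IRF1: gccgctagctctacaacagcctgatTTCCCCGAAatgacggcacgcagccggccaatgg
ICAM1: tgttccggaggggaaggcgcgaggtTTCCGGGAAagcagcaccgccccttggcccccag
The Fc receptor FCGR1A (chr1:149782576-149782634, plus strand) holds one as well:
FCGR1A: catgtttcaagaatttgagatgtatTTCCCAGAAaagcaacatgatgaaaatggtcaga
The chemokine CXCL10 (chr4:76023684-76023743, minus strand), the proteasome activator PSME2 (chr14:24146611-24146663, minus strand) and GBP1 (chr1:89065301-89065360, minus strand) hold an IRF element, and B2M (chr15:44711348-44711413, plus strand) holds a pair that overlap:
CXCL10: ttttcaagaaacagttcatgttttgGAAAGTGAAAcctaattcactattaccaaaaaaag
PSME2: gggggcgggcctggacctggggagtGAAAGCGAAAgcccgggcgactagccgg
GBP1: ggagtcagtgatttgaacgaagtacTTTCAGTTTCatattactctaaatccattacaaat
B2M: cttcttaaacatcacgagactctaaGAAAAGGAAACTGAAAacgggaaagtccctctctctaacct
CD274, the PD-1 ligand (chr9:5450309-5450450, plus strand), and IFI27 (chr14:94110603-94110675, plus strand) hold both elements, and in IFI27 the GAS overlaps the IRF matches:
CD274: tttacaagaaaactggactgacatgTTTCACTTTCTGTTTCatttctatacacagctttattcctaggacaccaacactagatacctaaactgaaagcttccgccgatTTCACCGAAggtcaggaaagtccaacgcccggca
IFI27: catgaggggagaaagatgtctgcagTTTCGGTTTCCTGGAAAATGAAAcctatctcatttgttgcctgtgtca

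Of the 15 tested genes of the receptor and its kinases and STATs, 4 rose, with a median log2 change of 0.48 over the list. The receptor chains did not pass the test. IFNGR1 was at 23.6, 22.7 and 18.4 TPM in untreated Kasumi-1, NOMO-1 and THP-1 and at 18.7, 27.5 and 15.6 TPM with IFNg (log2 change -0.09 ± 0.39, adjusted p = 0.96). IFNGR2 was at 9.83 to 12 TPM in the untreated lines, at 40.4 TPM in treated NOMO-1 and at 8.26 and 10.2 TPM in the other treated lines (log2 change 0.48 ± 0.39, adjusted p = 0.75). The kinase JAK1 was at 15.2 to 22.0 TPM in the untreated libraries and 16.1 to 19.1 TPM with IFNg (log2 change 0.02 ± 0.46). JAK2, the kinase bound to IFNGR2, rose from 5.74, 1.66 and 9.49 TPM to 22.3, 16.3 and 41.9 TPM (log2 change 2.17 ± 0.35, adjusted p = 0.024). STAT3, which acts downstream of interleukins such as interleukin 6, rose by 1.65 ± 0.25 on the log2 scale (adjusted p = 0.016), with untreated Kasumi-1 at 36.2 TPM overlapping IFNg-treated NOMO-1 at 33.3 TPM. STAT2, a factor of type I interferon signalling, was higher in each line without passing, at 272, 134 and 72.8 TPM after 19.7, 37.4 and 20.5 (log2 change 2.44 ± 0.50, adjusted p = 0.084). The kinase gene PIM1, known as a STAT target, rose from 4.62, 10.3 and 7.5 TPM to 115, 156 and 58.9 TPM (3.66 ± 0.49, adjusted p = 0.0065). Without Kasumi-1 the list had 2 calls, and without NOMO-1 or THP-1 it had 1. JAK2 lost its call without NOMO-1 (adjusted p = 0.18) or THP-1 (0.4). STAT3 (0.11 to 0.26) and PIM1 (0.052 to 0.077) lost theirs whichever line was left out.

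Interferon regulatory factors and the factors that act with them form the next tier, and 5 of 11 tested rose (list median 2.36). IRF1 (chromosome 5, 132481609 to 132490798, minus strand), whose GAS is shown above, was at 32.8, 16.4 and 18.7 TPM in untreated Kasumi-1, NOMO-1 and THP-1. With IFNg it was at 612, 333 and 407 TPM, a similar rise in each line (log2 change 4.27 ± 0.25, adjusted p = 4.2e-05). ETV7, an ETS-family repressor, was at or below 0.15 TPM in the untreated lines and at 44.2, 158 and 93.3 TPM with IFNg (log2 change 6.37 ± 0.36, adjusted p = 4.2e-05). BATF2, a bZIP factor, reached 44.8 to 56.9 TPM in the treated libraries from 0 to 1.83 TPM (log2 change 4.69 ± 0.44). IRF9, the DNA-binding part of a complex with STAT2, rose by 2.61 ± 0.48 (adjusted p = 0.046), and IRF2, which competes with IRF1 for its sites, by 2.36 ± 0.30 (adjusted p = 0.0045), both on the log2 scale. IRF8, a factor of the monocyte lineage, went in opposite directions, from 56.7 to 133 TPM in NOMO-1 and from 304 to 200 TPM in THP-1 (log2 change 0.01 ± 0.89). IRF1, ETV7 and BATF2 kept their calls without any 1 line, IRF9 lost its call without NOMO-1 (adjusted p = 0.37) or THP-1 (0.18), and IRF2 without each line (0.062 to 0.083).

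Of 18 tested inhibitors of cytokine signalling 1 was called, and the median log2 change of the list was 0.14. The 1 was SOCS1, which blocks JAK kinases and is itself a STAT target. It went from 0.126, 1.48 and 1.11 TPM to 21.6, 420 and 58.7 TPM in Kasumi-1, NOMO-1 and THP-1 (log2 change 5.52 ± 0.60, adjusted p = 0.0021). All treated libraries lay above all untreated ones, and the treated level in NOMO-1 stood well above the other lines. Without NOMO-1 or THP-1 the adjusted p was 0.052. SOCS3, a related inhibitor, was at 14.9, 4.59 and 7.13 TPM after 0.995, 2.05 and 1.16 TPM (log2 change 1.92 ± 0.62, adjusted p = 0.39). SOCS2 was lower in each line, at 6.89, 19.2 and 0.176 TPM after 16.9, 64.1 and 5.94 TPM (log2 change -1.81 ± 0.52, adjusted p = 0.30). USP18, which removes ISG15 from proteins and dampens type I interferon signalling, reached 154 TPM in Kasumi-1 and 1.16 and 12.1 TPM in NOMO-1 and THP-1 (log2 change 2.68 ± 0.94, adjusted p = 0.46).

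**Figure D1:**
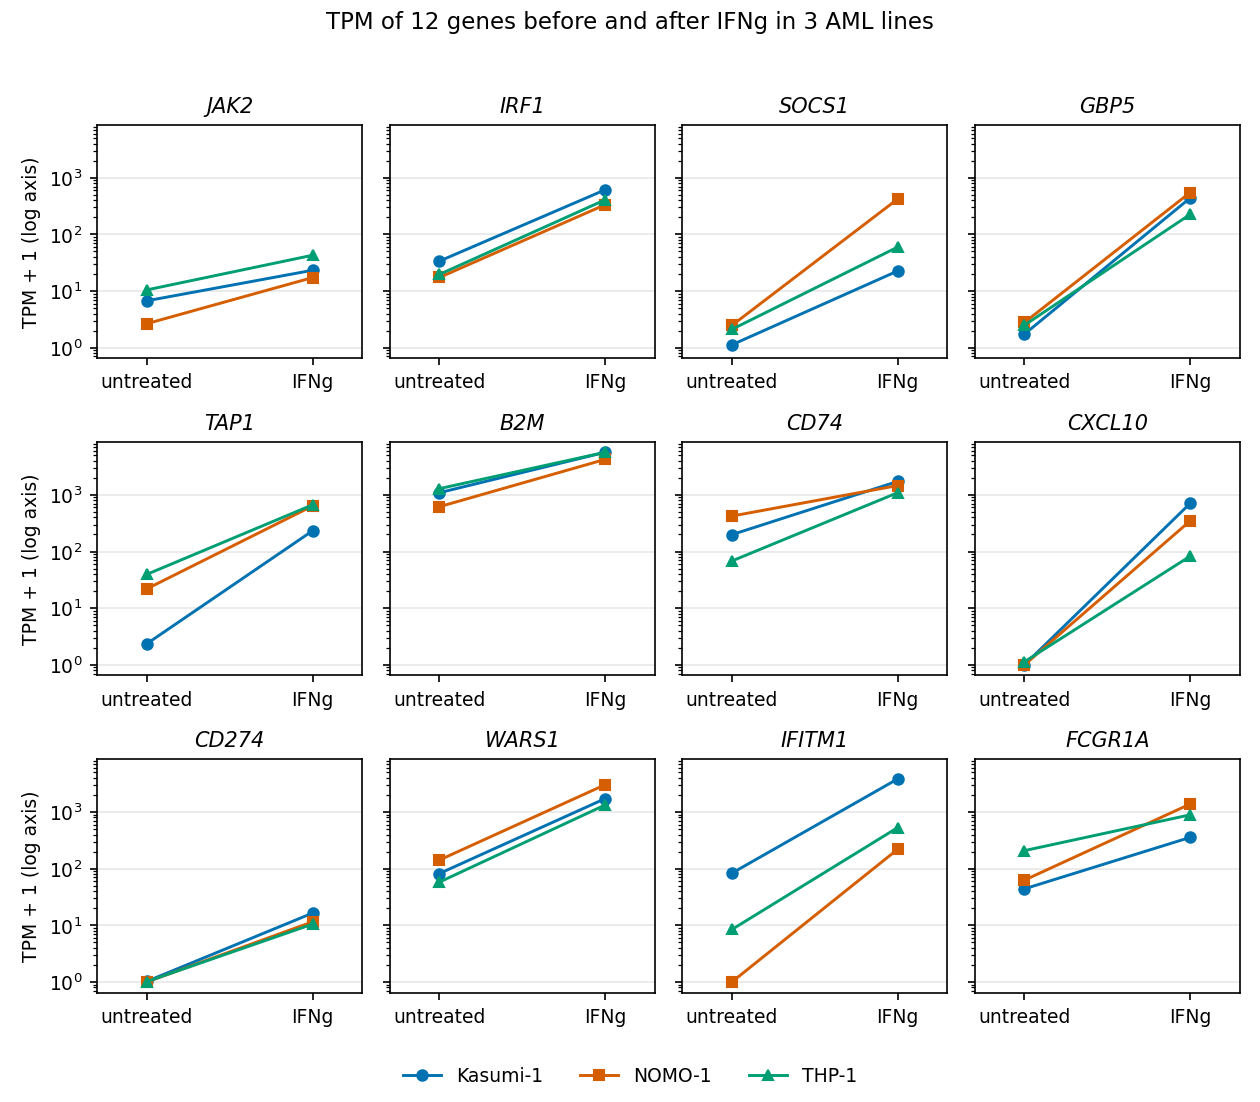
TPM + 1 on a log axis for 12 genes in untreated and IFNg libraries; each line joins the 2 libraries of 1 AML line (1 library per point, no error bars). Every gene shown went up in all 3 lines, IRF1 and B2M by similar steps and SOCS1, IFITM1 and TAP1 from or to levels that differ between lines.

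The guanylate binding proteins, large GTPases that attack vacuoles of microbes, gave 4 of the 5 highest log2 changes among the genes that rose. GBP1 was listed at 0 in untreated Kasumi-1, at 2.1 TPM in NOMO-1 and at 0.114 TPM in THP-1. With IFNg it was at 1296, 703 and 236 TPM (log2 change 8.63 ± 0.81, adjusted p = 0.00078). GBP5 went from 0.738, 1.79 and 1.5 TPM to 438, 548 and 225 TPM (7.37 ± 0.47 on the log2 scale, adjusted p = 7.1e-05). Untreated and treated levels were clearly apart for both, and treated THP-1 had the lowest level each time. GBP2 (log2 change 6.87 ± 0.69) started at 16.4 TPM in NOMO-1 and below 1 TPM in the other lines, and GBP4 (6.85 ± 0.57) at 0.2 to 2.94 TPM. The list of guanylate binding and related GTPases had 4 of 12 tested members called and a median of 4.32. Among those not called, the antiviral GTPase MX1 was at 981 TPM in treated Kasumi-1 and at 23.6 and 6.23 TPM in treated NOMO-1 and THP-1 (log2 change 4.32 ± 1.09, adjusted p = 0.21). GBP3 was at 12.1 TPM before and 15.8 TPM after IFNg in NOMO-1, beside 0.833 to 45.6 TPM in Kasumi-1 (2.63 ± 0.77, adjusted p = 0.32). On chromosome 1 all 6 tested genes between 89052319 and 89426243 rose, the 4 GBP genes with the pseudogene PTGES3P1 and the non-coding GBP1P1. The ends of this stretch were set by the outermost genes that rose. GBP3, tested and not called, lies outside them, so the count does not cover all GBP genes. GBP1P1 was listed at 0 in all untreated lines and at 93.1, 27.6 and 22.2 TPM with IFNg (adjusted p = 0.0021). It resembles GBP1 in sequence, so how reads were split between them bears on its level. Its adjusted p was 0.056 without NOMO-1 and 0.052 without THP-1, while the 4 GBP genes were called without any 1 line.

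The apolipoprotein L genes were called as a whole, 5 of 5 tested, with a median log2 change of 3.50. APOL1, whose protein lyses trypanosomes, rose from 0.453, 1.11 and 4.65 TPM to 147, 55 and 50.4 TPM (log2 change 4.86 ± 0.82, adjusted p = 0.031). APOL2 (3.50 ± 0.53), APOL4 (3.18 ± 0.39) and APOL6 (3.44 ± 0.50) rose without overlap of the groups. APOL3 reached 567 TPM in NOMO-1, 16.4 TPM in Kasumi-1 and 4.91 TPM in THP-1, the last below the 8.64 TPM of untreated NOMO-1 (4.16 ± 0.73, adjusted p = 0.035). They lie together on chromosome 22 from 35648395 to 36267530, where 5 of 7 tested genes rose. The 5 calls became 3 without Kasumi-1, 1 without NOMO-1 and 0 without THP-1.

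Antigen presentation on MHC class I rests on peptide cleavage by the proteasome, transport by TAP and a heavy chain bound to B2M. B2M was at 1093, 618 and 1289 TPM in the untreated lines and at 5646, 4231 and 5652 TPM with IFNg. The groups did not overlap and the lines rose alike (log2 change 2.42 ± 0.21, adjusted p = 0.00054). TAP1, 1 chain of the peptide transporter, went from 1.36, 21.0 and 38.6 TPM to 231, 636 and 666 TPM (5.18 ± 0.55 on the log2 scale, adjusted p = 0.0019). HLA-E, a class I molecule read by natural killer cells, rose from 36.3, 4.75 and 30.8 TPM to 199, 52.1 and 176 TPM (2.70 ± 0.34, adjusted p = 0.0045). Of 20 tested class I genes, 3 rose and 17 had a log2 change above 0, with a median of 0.76. HLA-B was at 2125, 107 and 6.5 TPM after 96.3, 26.7 and 1.72 TPM (2.62 ± 0.63, adjusted p = 0.18), and the class I transactivator NLRC5 at 86.8, 262 and 114 TPM after 2.82, 101 and 33.6 TPM (2.54 ± 0.74, adjusted p = 0.31). TAP2, the other chain of the transporter, was at or below 0.342 TPM in all 6 libraries. Levels of TAP2, of single HLA genes and of their neighbours on chromosome 6 can depend on how reads were assigned there. Without NOMO-1 the adjusted p was 0.067 for TAP1. HLA-E lost its call without NOMO-1 (adjusted p rounds to 0.05) or THP-1 (0.15), and B2M kept its call without any 1 line.

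Immunoproteasome genes, which reshape peptide cleavage under IFNg, had 3 of 6 called and 6 of 6 higher in all lines (median 1.83). PSME2 and PSME1 encode the activator cap of the proteasome. PSME2 went from 205, 500 and 424 TPM to 1320, 2277 and 2226 TPM (log2 change 2.42 ± 0.19, adjusted p = 0.00026), and PSME1 from 315, 101 and 232 TPM to 1201, 332 and 778 TPM (1.79 ± 0.18, adjusted p = 0.001). PSMB9, a catalytic subunit, rose from 0, 4.77 and 7.1 TPM to 31.6, 22.4 and 81.6 TPM (3.47 ± 0.64, adjusted p = 0.047). The catalytic subunit PSMB10 was at 628, 510 and 778 TPM after 81.6, 175 and 350 TPM and did not pass (1.87 ± 0.38, adjusted p = 0.080). PSME1, PSME2 and IRF9 lie within 30.4 kb of chromosome 14, and PSMB9 and TAP1 within 15.4 kb of chromosome 6. PSME2 kept its call without any 1 line, PSME1 lost it without THP-1 (adjusted p = 0.077), and PSMB9 lost it without each line (0.052 to 0.50). All 28 tested subunits of the constitutive proteasome had a log2 change above 0 (median 0.38), against 6026 of all 14711 genes tested. Of the 28, 2 rose, PSMA2 by 1.33 ± 0.19 (adjusted p = 0.010) and PSMA4 by 1.22 ± 0.17 (adjusted p = 0.0095). Both calls were lost whichever line was left out. Among the other subunits PSMB3 was listed at 0 in untreated NOMO-1 and at 302 and 266 TPM in untreated Kasumi-1 and THP-1, so its change of 2.97 ± 1.34 rests on that value.

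In the MHC class II pathway, which presents extracellular peptides, 1 of 17 tested genes rose and 15 had a log2 change above 0 (median 1.41). CD74, the invariant chain, was already at 198, 422 and 67.2 TPM without treatment and reached 1727, 1461 and 1091 TPM (log2 change 2.97 ± 0.54, adjusted p = 0.044). Its adjusted p was 0.23 without Kasumi-1, 0.052 without NOMO-1 and 0.43 without THP-1. The thiol reductase IFI30 was at 6.39, 112 and 23.1 TPM before and at 802, 869 and 530 TPM after IFNg, with no overlap (4.72 ± 1.08, adjusted p = 0.14). CIITA, the class II transactivator, was at 25.9, 84.3 and 15.9 TPM after 2.06, 18.2 and 1.06 TPM (2.77 ± 0.81, adjusted p = 0.32). Treated THP-1 thus stayed below untreated NOMO-1 for CIITA. The proteases CTSS (2.21 ± 0.54, adjusted p = 0.19) and CTSL (1.81 ± 0.35, adjusted p = 0.065) were higher in each line without passing. HLA-DRA was listed at 0 in all 6 libraries and HLA-DPA1 at 0 in the untreated ones, with 9.57, 8.7 and 0.32 TPM after IFNg, so the class II chains themselves cannot be read from these values.

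Antiviral effectors, many of them shared targets of type I interferon, were the longest list with calls. Of 54 tested, 18 rose, 48 were higher in all 3 lines and 50 had a log2 change above 0. The median was 2.58, and by line it was 3.38 for Kasumi-1, 1.76 for NOMO-1 and 1.55 for THP-1. The 18 calls became 8 without Kasumi-1, 5 without NOMO-1 and 3 without THP-1. IFITM1, which blocks entry of viruses at membranes, went from 82.3, 0 and 7.43 TPM to 3826, 218 and 528 TPM (log2 change 6.42 ± 0.73, adjusted p = 0.0025). Its neighbour IFITM3 reached 2842, 649 and 1366 TPM from 397, 13 and 133 TPM (3.91 ± 0.46, adjusted p = 0.0034). IFITM genes resemble each other in sequence, so reads may have been split between them. IFI27 went from 0.665 TPM in Kasumi-1 and 0 in the other lines to 324, 47.1 and 54.7 TPM (6.33 ± 0.82, adjusted p = 0.0055). EPSTI1 reached 91.8, 105 and 23.0 TPM from at most 0.389 TPM (5.73 ± 0.51, adjusted p = 0.00056), and the RNA exonuclease ISG20 375, 183 and 6.97 TPM (5.26 ± 0.93, adjusted p = 0.037). The mitochondrial protein gene IFI6 rose from 86.2, 3.24 and 33.5 TPM to 2575, 196 and 314 TPM (4.54 ± 0.56).

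Several members had their highest treated level in Kasumi-1 by a wide margin. IFIT3, which binds foreign RNA together with its relatives, was at 1085 TPM in treated Kasumi-1 and at 15.6 and 28.7 TPM in treated NOMO-1 and THP-1 (4.65 ± 0.79, adjusted p = 0.031). OAS1, a sensor of double-stranded RNA, was at 390, 43.3 and 23.8 TPM after 2.93, 1.74 and 1.66 TPM (4.62 ± 0.80, adjusted p = 0.032). Its neighbour OAS3 rose by 3.97 ± 0.66 (adjusted p = 0.028). IFIT1 (251, 2.49 and 1.9 TPM), IFIT2 (508, 4.57 and 8.14 TPM) and RSAD2 (236, 6.99 and 4.66 TPM) were also highest in treated Kasumi-1. They did not pass, with adjusted p of 0.50, 0.33 and 0.45. LY6E was listed at 630 TPM in treated Kasumi-1 and at 0 in all 4 libraries of NOMO-1 and THP-1. By contrast, the ADP-ribosyltransferase genes PARP14 (3.91 ± 0.38, adjusted p = 0.00091) and PARP9 (3.83 ± 0.56) rose in each line by 2.99 or more on the log2 scale, next to their partner DTX3L on chromosome 3 (2.73 ± 0.32). TRIM22, an antiviral ubiquitin ligase, kept its line order, at 12.5, 132 and 3.58 TPM before and 316, 1664 and 29.1 TPM after (3.64 ± 0.50, adjusted p = 0.0088).

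**Figure D2:**
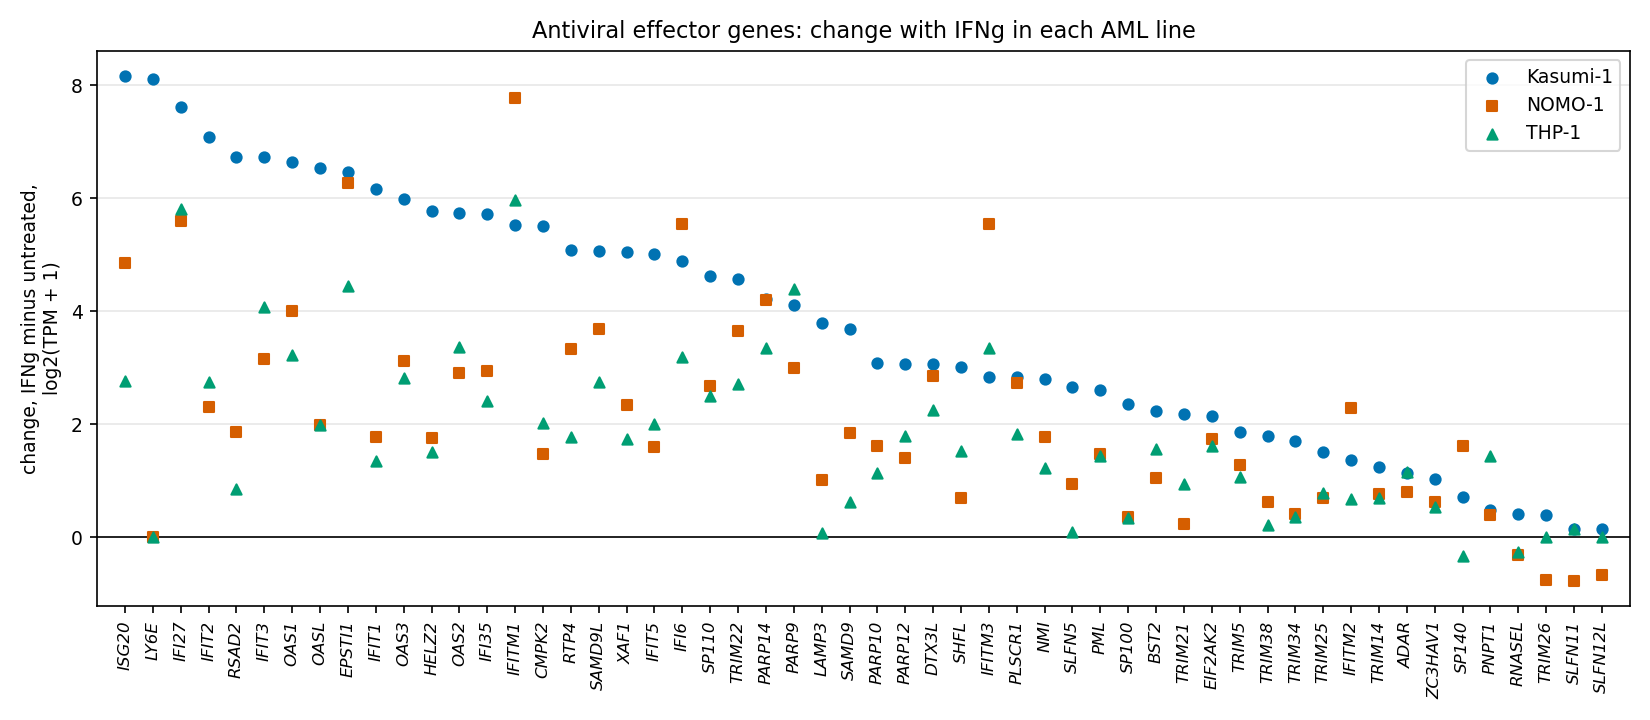
Log2 change with IFNg of antiviral effector genes, 1 point per AML line (1 pair of libraries each), ordered by the change in Kasumi-1. Kasumi-1 lies highest for most of the genes on the left, NOMO-1 for IFITM1, IFITM3 and IFI6, and points below the line at 0 are few.

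Type I and type III interferon genes were listed at 0 to 0.847 TPM in the untreated and IFNg libraries. A listed 0 does not show absence in these data, since PSMB3 is listed at 0 in untreated NOMO-1 as well. In Kasumi-1 the interferon beta gene IFNB1 was at 0.0705 TPM untreated and 0.529 TPM with IFNg, IFNA1 at 0 and 0.684 TPM and IFNL1 at 0 and 0.847 TPM. In NOMO-1 all 10 genes of the list were listed at 0 in both libraries, and in THP-1 none exceeded 0.116 TPM. The gene of IFNg itself, IFNG, was listed at 0 in all 6. None of the 10 passed the filter of 1 TPM in 2 libraries. In Kasumi-1 these levels and the higher antiviral response stood side by side, and their part in it was not tested. Among genes that conjugate ISG15, 1 of 7 rose, the ubiquitin-conjugating enzyme UBE2L6, from 58.9, 27.4 and 15.9 TPM to 868, 433 and 558 TPM (log2 change 4.28 ± 0.39, adjusted p = 0.0006; 0.051 without NOMO-1). ISG15 was at 1623, 349 and 191 TPM after 13.7, 48.1 and 50 TPM (3.84 ± 1.06, adjusted p = 0.27). None of 28 nucleic acid and pattern sensors was called (median 0.84), with the RNA sensor IFIH1 at 159, 12.6 and 11.7 TPM after 6.68, 1.82 and 1.97 TPM (2.91 ± 0.56, adjusted p = 0.065). The DNA sensor AIM2 was listed at 0 in the untreated lines and at 0.506, 56.7 and 8.13 TPM with IFNg (adjusted p = 0.20). None of 8 APOBEC3 and SAMHD1 genes was called, the deaminase gene APOBEC3G having a log2 change of 1.99 ± 0.53 (adjusted p = 0.24).

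Chemokines that attract T cells through CXCR3 were the chemokines that rose, 2 of 20 tested. CXCL10 was at 0, 0 and 0.132 TPM in untreated Kasumi-1, NOMO-1 and THP-1 and at 706, 346 and 81.7 TPM with IFNg (log2 change 8.03 ± 1.01, adjusted p = 0.0045). CXCL9, its neighbour within 22.2 kb of chromosome 4, went from at most 0.0487 TPM to 121, 55.2 and 20.6 TPM (5.70 ± 0.65, adjusted p = 0.0025). The line order was the same for both. Without NOMO-1 the adjusted p was 0.052 for CXCL10 and 0.065 for CXCL9, and without THP-1 it was 0.053 for CXCL10. CXCL11, their relative, was at 338, 4.29 and 19.4 TPM and did not pass (5.04 ± 1.08, adjusted p = 0.10). The monocyte chemokine CCL2 was at 0.997, 25.6 and 79.6 TPM after 0, 1.29 and 6.7 TPM (2.64 ± 0.63, adjusted p = 0.17). None of 9 chemokine receptors was called, and CXCR4 was at 19.5 TPM after 136 TPM in NOMO-1, 26.7 after 43.9 in THP-1 and 2.86 after 2.76 in Kasumi-1.

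Of 33 tested cytokines and receptors, 3 rose. IL15RA, which presents interleukin 15 to lymphocytes, went from 8.95, 0.631 and 2.12 TPM to 110, 21.3 and 48.7 TPM (log2 change 3.75 ± 0.25, adjusted p = 7.5e-05). IL18BP, a soluble inhibitor of interleukin 18, went from 9.63, 3.7 and 9.35 TPM to 135, 66.8 and 94.4 TPM (3.58 ± 0.61, adjusted p = 0.031). IL12RB1, a receptor chain for interleukins 12 and 23, rose by 2.68 ± 0.37 on the log2 scale (adjusted p = 0.0089). The groups did not overlap for any of these 3. IL15RA kept its call without any 1 line. IL18BP lost its call whichever line was left out. Its adjusted p was 0.083 without Kasumi-1, 0.34 without THP-1 and rounded to 0.05 without NOMO-1. IL12RB1 lost its call without NOMO-1 (adjusted p = 0.065) or THP-1 (0.18). The receptor antagonist IL1RN was at 19.3, 143 and 63.1 TPM after 0.112, 28.6 and 6.63 TPM (3.18 ± 0.79, adjusted p = 0.20).

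Ligands seen by T cells and natural killer cells had 2 of 32 called. CD274, the PD-1 ligand that restrains T cells, was at or below 0.0248 TPM untreated and at 15.4, 10.5 and 9.47 TPM with IFNg, close in the 3 lines (log2 change 3.63 ± 0.45, adjusted p = 0.0042). Its start lies on chromosome 9 at 5450503, in a stretch of 486.2 kb with JAK2, where 2 of 5 tested genes rose. The other PD-1 ligand PDCD1LG2 stayed at or below 1.91 TPM (0.79 ± 0.32, adjusted p = 0.55). The costimulatory receptor CD40 was at 2.48, 64.8 and 14.5 TPM after 0.241, 0.798 and 5.08 TPM (2.68 ± 0.81, adjusted p = 0.34). SECTM1, a ligand of CD7, rose from 0.0239, 5.01 and 0.651 TPM to 187, 268 and 60.9 TPM (6.08 ± 0.85, adjusted p = 0.0095). Without THP-1 the adjusted p was 0.15 for SECTM1 and 0.077 for CD274, which also lost its call without Kasumi-1 (0.076), as SECTM1 did without NOMO-1 (0.052). CD7 itself was at 2.45, 25.4 and 1.61 TPM after at most 0.265 TPM (2.39 ± 0.61, adjusted p = 0.21).

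Surface antigens considered as targets in AML had 1 of 45 called and a median log2 change of 0.21. This was FCGR1A, the high-affinity receptor for IgG, at 43.0, 61.7 and 207 TPM untreated and 355, 1379 and 890 TPM with IFNg (3.19 ± 0.55, adjusted p = 0.032). Its near-identical copies FCGR1BP (4.34 ± 0.55, adjusted p = 0.0045) and FCGR1CP (3.86 ± 0.47, adjusted p = 0.004) rose too, and reads may have been split among the 3. These Fc receptor genes gave the 2 calls among 15 tested Fc receptors and adaptors, where FCGR1CP was not listed. FCGR1A lost its call without each line (adjusted p = 0.11 to 0.18). CD33 was at 34, 286 and 76.3 TPM after 19.4, 167 and 65.1 TPM (0.59 ± 0.30, adjusted p = 0.61). IL3RA, the CD123 antigen, was at 13.9, 49.4 and 9.48 TPM after 5.13, 17.5 and 4.79 TPM (1.2 ± 0.30, adjusted p = 0.20). CD38 was at 31.0, 20.9 and 27.4 TPM after 5.77, 4.92 and 16.1 TPM (1.62 ± 0.65, adjusted p = 0.55). These 3 were higher in each line without passing. CLEC12A was lower in each, at 0.375, 16.5 and 2.56 TPM after 2.1, 37.5 and 3.6 TPM (-0.89 ± 0.37, adjusted p = 0.55), as was the receptor KIT, at 82.2 after 250 TPM in Kasumi-1 and below 3 TPM in the other lines (-1.21 ± 0.61, adjusted p = 0.61).

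In the list named for tryptophan and arginine metabolism, which also holds enzymes of other pathways, 3 of 16 tested genes rose. WARS1, the tryptophanyl-tRNA synthetase, went from 81.0, 141 and 56.9 TPM to 1719, 3025 and 1326 TPM (log2 change 4.44 ± 0.29, adjusted p = 7.1e-05). GCH1, the first enzyme of tetrahydrobiopterin synthesis, went from 3.5, 6.02 and 2.52 TPM to 65.0, 72.2 and 37.0 TPM (3.56 ± 0.35, adjusted p = 0.001). NAMPT, an enzyme of NAD synthesis, rose by 2.34 ± 0.32 on the log2 scale (adjusted p = 0.0084), with untreated Kasumi-1 at 37.1 TPM above treated NOMO-1 and THP-1 at 17.3 and 28.1 TPM. WARS1 kept its call without any 1 line, GCH1 missed it without THP-1 (adjusted p = 0.053), and NAMPT without NOMO-1 (0.14) or THP-1 (0.24). IDO1, which degrades tryptophan, was at 9.59, 267 and 2.5 TPM after 0.244, 10.3 and 0.781 TPM and did not pass (2.88 ± 0.61, adjusted p = 0.099). Its treated level in NOMO-1 stood far above the other lines.

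Complement had 2 of 23 called. SERPING1, the inhibitor of the first complement component, was at 0, 0 and 0.72 TPM untreated and 3.34, 343 and 181 TPM with IFNg, the weakest response being in Kasumi-1 (log2 change 5.76 ± 0.98, adjusted p = 0.031). C4A went from 2.02, 58.0 and 4.35 TPM to 6.05, 525 and 55.2 TPM (2.59 ± 0.44, adjusted p = 0.031), with the reservation that C4B is a near-identical copy. Both lost their calls without NOMO-1 (adjusted p = 0.41 and 0.37) and without THP-1 (0.48 each). Of 20 adhesion genes 1 rose, ICAM1, from 11.8, 3.82 and 0.851 TPM to 49.5, 55.4 and 15.4 TPM (2.89 ± 0.32, adjusted p = 0.0022; 0.055 without NOMO-1 and 0.077 without THP-1). None of 12 phagocyte oxidase genes was called; NCF1, the p47 subunit, was at 15.7, 2776 and 77.4 TPM after 1.4, 503 and 43.2 TPM (2.03 ± 0.85, adjusted p = 0.56). NCF1 has near-identical pseudogenes.

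No gene of the 38 tested cell death genes was called, and 31 had a log2 change above 0 (median 0.49). The death ligand TNFSF10 was at 472, 98.9 and 23.4 TPM after 2.24, 32.0 and 2.4 TPM (3.88 ± 1.19, adjusted p = 0.35). The receptor FAS was at 20.6, 6.5 and 5.74 TPM after 0.201, 3.76 and 0.121 TPM (2.47 ± 0.74, adjusted p = 0.34). The inflammatory caspases CASP1 (2.57 ± 0.77, adjusted p = 0.33) and CASP4 (1.55 ± 0.33, adjusted p = 0.10) were higher in each line. Of 30 NF-kB genes none was called, with a median of 0.33; BCL3 had a log2 change of 2.22 ± 0.43 (adjusted p = 0.068).

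**Figure D3:**
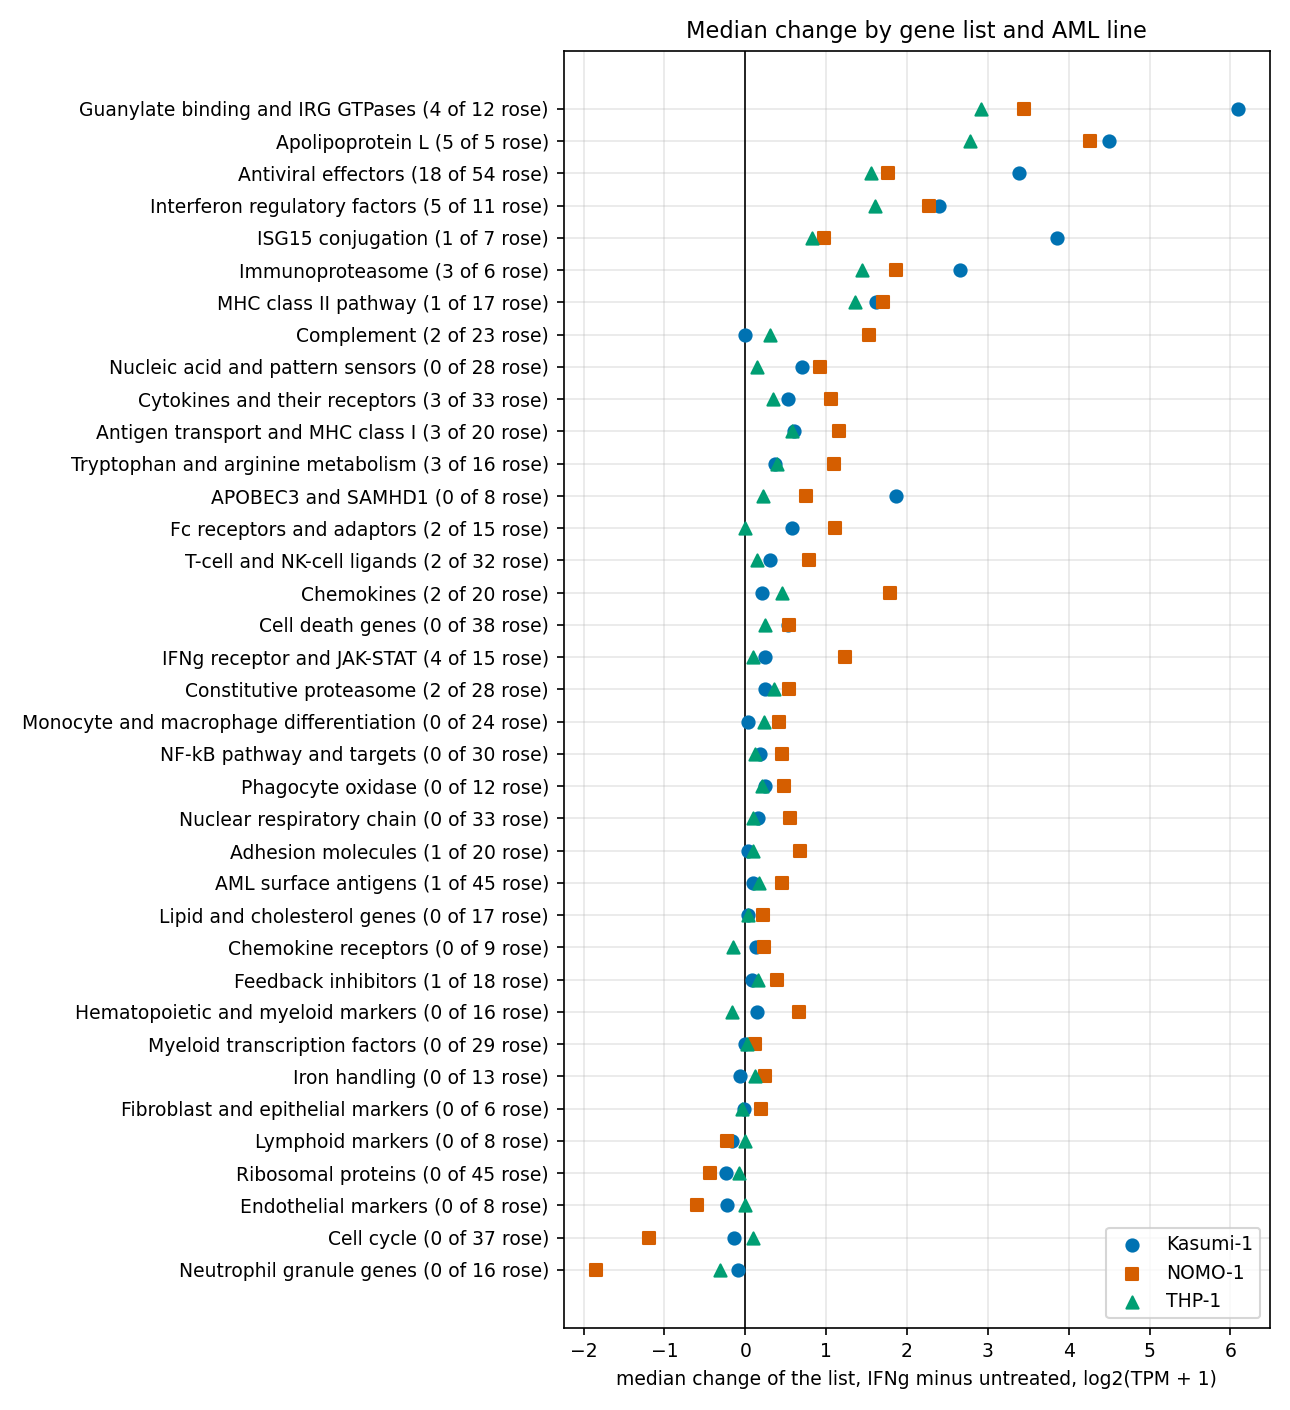
Median log2 change of the tested members of each gene list in each AML line (3 points a list; no error bars), with the number of members that rose. The GTPase, apolipoprotein L, antiviral and IRF lists lie to the right in all lines, and the granule and cell cycle lists lie left mainly in NOMO-1.

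Granule proteases of immature myeloid cells pointed the other way without passing the test. Of 16 tested granule genes 0 were called, 3 had a log2 change above 0 and 8 were lower in all 3 lines, as were 22.9% of all tested genes. The median was -0.84, and by line -0.09 for Kasumi-1, -1.85 for NOMO-1 and -0.31 for THP-1. ELANE, neutrophil elastase, was at 1935, 353 and 2904 TPM untreated and at 1278, 2.69 and 1687 TPM with IFNg (log2 change -2.65 ± 1.04, adjusted p = 0.54). PRTN3, proteinase 3, was at 633, 5.67 and 930 TPM after 1378, 316 and 1978 TPM (-2.59 ± 0.88, adjusted p = 0.44). CTSG, cathepsin G, was at 58.0, 13.5 and 1412 TPM after 261, 412 and 4073 TPM (-2.84 ± 0.87, adjusted p = 0.35). The treated level of NOMO-1 was far below its untreated level for all 3, and without NOMO-1 the log2 change of ELANE was -0.69. MPO, myeloperoxidase, was at 4810 after 6987 TPM in Kasumi-1, 4.55 after 161 in NOMO-1 and 0.453 after 1.29 in THP-1 (-2.02 ± 1.06, adjusted p = 0.63).

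**Figure D4:**
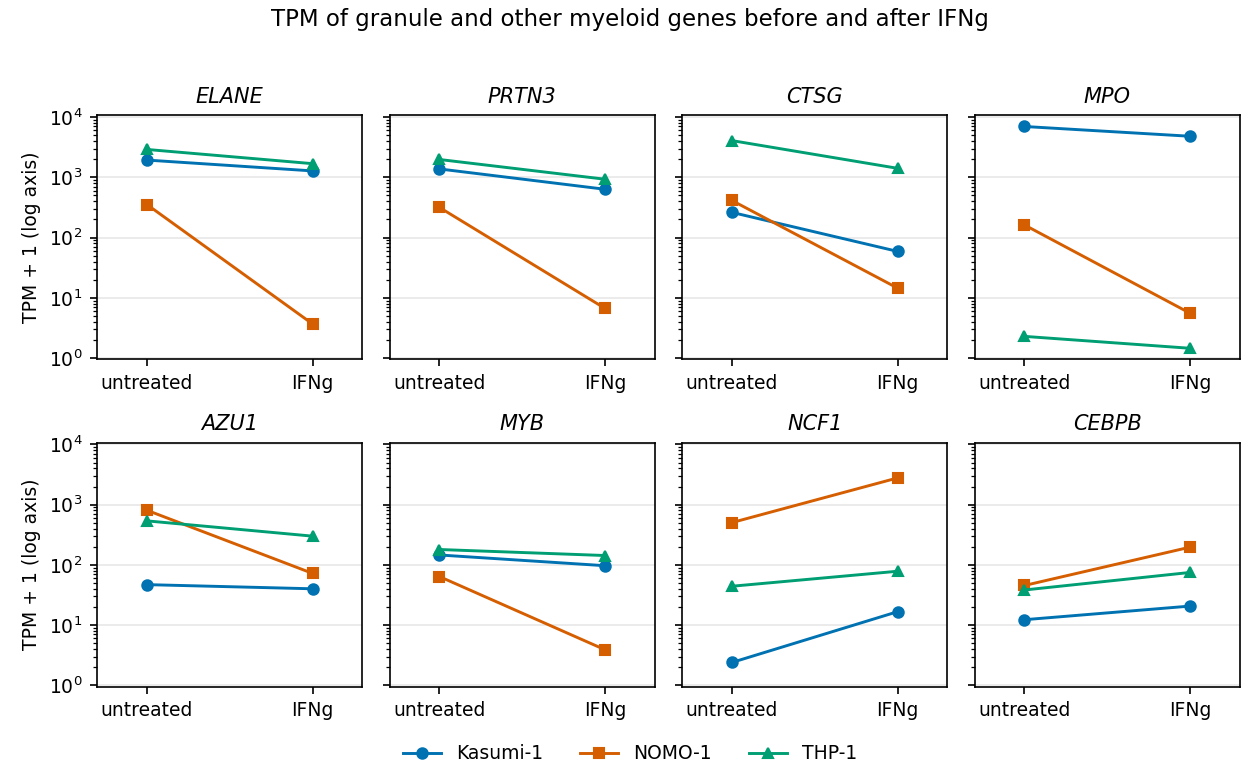
TPM + 1 on a log axis of granule genes and 3 other myeloid genes in untreated and IFNg libraries of the 3 AML lines (1 library per point, no error bars). ELANE, PRTN3, CTSG, MPO and AZU1 are lower with IFNg in each line, most steeply in NOMO-1, while NCF1 and CEBPB are higher in each.

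None of 29 myeloid transcription factors was called, and the list as a whole hardly moved (median log2 change 0.1, 16 of 29 above 0). MYB, a factor of immature cells, was at 95.9, 2.9 and 142 TPM after 145, 63.0 and 179 TPM (log2 change -1.66 ± 0.62, adjusted p = 0.52), and CEBPB, a factor of monocytes, at 19.7, 196 and 73.9 TPM after 11.3, 44.5 and 37.3 TPM (adjusted p = 0.29). Of 37 cell cycle genes 0 were called, with a median of -0.46 that was -1.19 in NOMO-1. The topoisomerase TOP2A was at 17.0 after 68.8 TPM there, beside 91.5 after 110 in Kasumi-1 and 86.2 after 123 in THP-1 (-0.91 ± 0.44). CDKN1A, an inhibitor of cell cycle kinases, was at 13.4, 74.7 and 22.7 TPM after 0.519, 4.55 and 9.94 TPM (2.71 ± 0.79, adjusted p = 0.31). No ribosomal protein gene of 45 was called, and 31 were lower in all lines (median -0.26). None was called among 33 nuclear respiratory chain genes (median 0.24), 24 genes of monocyte and macrophage differentiation (0.35), 17 lipid and cholesterol genes (0.17) and 13 genes of iron handling (-0.06). TERT, the telomerase reverse transcriptase, was at 2.36, 0.404 and 1.26 TPM after 6.6, 8.07 and 6.87 TPM, groups that did not overlap (-1.89 ± 0.43, adjusted p = 0.14). The lowest adjusted p among lower genes belonged to the lysosomal channel gene TPCN1 (-1.15 ± 0.22, adjusted p = 0.068), at 1.34, 43.4 and 30.3 TPM after 5.71, 87.9 and 58.7 TPM.

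Among the 91 genes that rose, Kasumi-1 had the largest change for 45, NOMO-1 for 37 and THP-1 for 9, and THP-1 had the smallest for 52. Over all tested genes, 1521 were higher and 1716 lower by more than 1 log2 unit in NOMO-1, 719 and 549 in Kasumi-1, and 458 and 313 in THP-1. After removal of mitochondrial genes, TPM of NOMO-1 was multiplied by 4.19 untreated and 3.76 with IFNg, against 1.18 to 1.36 in the other lines. Whether this widened the changes listed for NOMO-1 was not tested. A total of 41 genes were higher by more than 3 log2 units in all lines, and 0 lower by as much. The IFNg effect of Kasumi-1 was compared with the mean of NOMO-1 and THP-1 in limma, using each line's libraries with and without TNFa. Each line had its own IFNg and TNFa terms in that fit. Its errors and p-values thus measure departures from added effects within lines, not spread between lines or cultures. Of 14711 genes 0 passed, with a lowest adjusted p of 0.101, while 1993 (13.5%) had an unadjusted p under 0.05, 1301 of them (8.84% of those tested) higher in Kasumi-1. The lowest p belonged to TNFSF10, with an effect higher in Kasumi-1 by 4.96 ± 0.45 log2 units, and CASP1 differed by 3.47 ± 0.35. GIMAP7, a GTPase of lymphocytes, was at 6.5 TPM in treated Kasumi-1 and listed at 0 in the other 5 libraries. PSMB3 lay the other way, with an effect lower in Kasumi-1 (-3.20 ± 0.32), and PSMB3 is listed at 0 in NOMO-1 without treatment and with TNFa. These 4 genes have the lowest p-values of the comparison.

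The same IFNg treatment was compared between cell types in 1 fit of all 20 libraries, so that errors are shared. In the endothelial lines 56 genes rose (0.351% of 15941 tested) and 4 fell (0.0251%), ADTRP, HHIP and 2 pseudogenes. In that same fit 124 genes rose and 8 fell in the AML lines, and 36 rose in both cell types, which is 36 of the 124 AML rises and 64.3% of the endothelial ones. Of the 91 genes called in the fit of the 12 AML libraries, 34 were among the 56. IRF1 had a log2 change of 4.63 ± 0.30 in endothelial lines, GBP5 of 7.51 ± 0.89, WARS1 of 3.90 ± 0.37 and B2M of 2.28 ± 0.30. The difference between cell types passed the test for 1 gene (0.00627%), TCIM, a regulator of Wnt signalling (-2.27 ± 0.26, adjusted p = 0.019), while 623 (3.91%) had an unadjusted p under 0.05. TCIM was listed at 0 in all 6 AML libraries, at 5.74 and 10.4 TPM in untreated iHUVEC and TIME and at 31.8 and 53.7 TPM with IFNg. A gene at 0 in all AML libraries adds no spread there, so its error is understated. With any 1 AML line left out the count was 0, and it was 25 without iHUVEC and 13 without TIME, where 1 endothelial line remained. CD74 started from 0 and 1.12 TPM in the endothelial lines and reached 287 and 398 TPM, and the difference of its log2 changes, AML minus endothelial, was -4.89 ± 0.78 without passing (adjusted p = 0.13). MYOF, a membrane repair gene, rose in AML lines from 2.07, 5.54 and 1.47 TPM to 88.2, 74.1 and 35.5 TPM and was at 152 to 256 TPM in all endothelial libraries compared, a difference of 3.74 ± 0.61 (adjusted p = 0.13). FCGR1A was listed at 0 in all 4 endothelial libraries.

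TNFa alone, which shares its untreated libraries with IFNg, gave 16 rises in the AML lines (0.109%). Of the 91 genes, 2 also rose with TNFa. ICAM1 was at 174, 87.2 and 43.1 TPM with TNFa (log2 change 4.18 ± 0.32, adjusted p = 0.0019). PSTPIP2, an adaptor that restrains inflammation in myeloid cells, rose by 1.99 ± 0.30, a call at the edge of the threshold (adjusted p rounds to 0.05). IRF1 was at 38.9, 10.6 and 26.3 TPM with TNFa (0.04 ± 0.25) and CXCL10 at 81.3, 0.212 and 2.72 TPM. With both cytokines CXCL10 was at 19201, 1932 and 8076 TPM and CXCL9 at 8728, 787 and 1229 TPM. In those libraries IFNB1 was at 37.7 TPM in Kasumi-1, with NOMO-1 at 0 and THP-1 at 0.0687 TPM.

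Within genes, the share of TPM held by each transcript was compared between IFNg and untreated libraries. Of 11957 transcripts tested with limma 0 passed, with a lowest adjusted p of 0.936, and 404 (3.38%) had an unadjusted p under 0.05.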

How the data were processed

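The authors deposited TPM for 35168 genes and 170068 transcripts; the submitters' processing notes name Salmon 1.2.0, DESeq2 1.28.1 and GRCh38 patch 13 without roles, and no source used here names the annotation release. TPM keeps no totals, so depth is unknown and no count test was run. Columns named x2 were read as both cytokines, the only treatment left without a column. Symbols came from a gene name table for 35051 IDs and GENCODE 29 for 110, which also gave coordinates. Mitochondrial genes were removed and TPM rescaled. log2(TPM + 1) values were tested with limma 3.58.1 (R 4.3.3), with a variance trend, terms for line and treatment over the 12 AML libraries, and Benjamini-Hochberg adjustment. Genes with 1 TPM in 2 libraries entered, leaving 6 residual degrees of freedom. The line pairs the libraries by design, and deviations of the 2 libraries of a line from their group means correlated between 0.83 and 0.87. Transcript shares were tested in genes with a mean of 5 TPM. Alternatives changed scaling, pseudocount, filter, block, trend and libraries. Scripts were tested on simulated data.

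Named genes are the 20 called genes with the highest rises, up to 4 members with the largest change of each of 39 lists, members whose role a sentence is about, and the called genes of each difference. The lists and members were chosen with earlier results of these data known. IFNGR1, the interferon genes, genes near 0, CD33, CD38, PDCD1LG2, TERT, TPCN1, promoters shown and called genes of no list were picked after their values were seen. Analyses used Python 3.11.15, pandas 2.3.3 and matplotlib 3.10.9. Some list members counted here are not reported by name.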

Additional observations from a re-analysis of the deposited data

Results flagged for a closer look

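The response to IFNg differed between cell types by the test of the difference for TCIM (-2.27 ± 0.26, adjusted p = 0.019 in limma), a gene listed at 0 in the AML libraries. Opposite directions were searched only among the called genes and other genes picked by name. For 3 of these every AML line moved one way and both endothelial lines the other. None of these differences passed the test, with adjusted p of 1.0 for each. CXCL8, a neutrophil chemokine, had a mean log2 change of 1.19 in AML lines (0.37 to 2.42) and -1.23 in endothelial lines, at -2.41 in 1 line and -0.04, close to no change, in the other. AZU1, the granule protein azurocidin, had -1.52 in AML lines (-3.48 to -0.23) and 0.11 in endothelial lines (0.10 and 0.12), where it stayed below 1 TPM. RELB, an NF-kB subunit, had 1.18 in AML lines (0.73 to 1.77) and -0.18 in endothelial lines (-0.20 and -0.15).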

How the results depend on the processing

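The 91 genes called with IFNg in AML lines became 45 without a filter and 19 with no replicate block, and between 25 and 59 when 1 line was left out, with no call of a lower gene in these fits. Under the other scalings, pseudocounts, filter, trend and sets of libraries the count ran from 63 to 132, with 1 lower gene at 5 TPM and 8 with all 20 libraries. In all 14 fits 13 genes were called. The gene that differed between cell types became 0 with a pseudocount of 0.1 and with no replicate block, 11 without a filter, and 0 to 25 without 1 line. The 0 genes of the comparison of Kasumi-1 with the other lines became 35 with TPM as deposited, 1 with a pseudocount of 0.1 and 1 with a shared term for both cytokines. Transcript shares gave 0 in every fit run, also with no replicate block. The cause of these moves was not tested, apart from fewer samples or more genes tested by construction. Of single named genes, 383 values lost a call, 26 gained one and 1788 kept their side. The direction turned for IFNGR1 (0.02 without Kasumi-1, from -0.27 to 0.02 over the lines left out), IFNGR2 (-0.24 without NOMO-1, from -0.24 to 0.86) and JAK1 (-0.06 without Kasumi-1 and -0.12 without NOMO-1, from -0.12 to 0.25). The count fell by over 1.5 times without each of the 3 lines.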

Other observations

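The genes that gained the most TPM were often not those with the highest log2 changes. TMSB10, which sequesters actin, went from 1777, 1784 and 2215 TPM to 6418, 13811 and 7657 TPM in Kasumi-1, NOMO-1 and THP-1, a mean gain of 7370 TPM (log2 change 2.20 ± 0.28, adjusted p = 0.0045). In iHUVEC it was at 8632 TPM untreated and 7048 TPM with IFNg, and in TIME at 10826 and 13598 TPM. These opposite changes gave a mean log2 change of 0.02 ± 0.3 in the endothelial lines. The difference between cell types did not pass (adjusted p = 0.15). The call in AML lines was missed without NOMO-1 (adjusted p = 0.065) or THP-1 (0.076). B2M gained 4176.3 TPM on average. TYMP, thymidine phosphorylase, gained 2179.1 TPM, most of it in NOMO-1, where it went from 524 to 6466 TPM beside 92.4 and 574 TPM in treated Kasumi-1 and THP-1.

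Of the 91 genes, 29 stood in none of the lists. The matrix link protein gene HAPLN3 rose from 1.21, 1.02 and 0.193 TPM to 207, 117 and 50.8 TPM (5.96 ± 0.36, adjusted p = 5.5e-05). The aminopeptidase LAP3 rose from 83.3, 28.5 and 43.3 TPM to 883, 625 and 589 TPM (3.84 ± 0.22, adjusted p = 4.2e-05). FBXO6, a ubiquitin ligase subunit that recognises glycoproteins, rose from 7.16, 7.61 and 7.92 TPM to 104, 63.3 and 78.5 TPM (3.25 ± 0.22, adjusted p = 7.6e-05). LGALS3BP, a secreted glycoprotein, rose from 18.4, 0.746 and 1.32 TPM to 506, 41.9 and 73.4 TPM (4.78 ± 0.42, adjusted p = 0.00054). These 4 kept their calls without any 1 line. PLAAT4, a phospholipase of the retinoid-inducible kind, reached 252 TPM in NOMO-1, 49.1 in Kasumi-1 and 14.3 in THP-1 (4.39 ± 0.71, adjusted p = 0.023). RNF213, a large ubiquitin ligase, reached 375, 342 and 86.5 TPM in Kasumi-1, NOMO-1 and THP-1 (2.82 ± 0.42, adjusted p = 0.015). PLAAT4 lost its call without Kasumi-1 (adjusted p = 0.21) or NOMO-1 (0.2), and RNF213 without NOMO-1 or THP-1 (0.13 each). Of the 91 genes, 37 lay within 500 kb of another, in 14 groups. How often equally many tested genes lie as close was not computed, so the count does not show grouping.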
